A study of Mus musculus with 9 samples.

Results

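The genes described are those of the sarcomere, the contractile unit of striated muscle, together with close relatives of the same families. They were chosen by symbol: myosin heavy and light chains, myosin-binding protein C, troponins, tropomyosins, alpha-actinins, myozenins, myomesins, calsequestrins, ryanodine receptors, the calcium pumps of the Atp2a family, and Mylpf, Acta1, Actc1, Ckm, Mb, Neb, Des and Dysf. Of 13089 genes in the tables, 54 matched, and all 54 were tested. Grouped by textbook knowledge of where each is used, 38 belong to striated muscle: 14 to fast skeletal fibres, 14 to slow fibres or heart, 7 to striated muscle in general, 2 to developing fibres and 1, Myh13, to extraocular muscle. Another 13 are made by many cell types, and the last 3 are Myh11 of smooth muscle, Des of striated and smooth muscle, and Dysf. Titin, Myh6, Myh15 and Myom2 were not analysed here, and relatives listed under symbols outside the rule do not enter these counts.

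The RNA came from enucleated whole eyes of wild-type female mice, 4 weeks old, of the inbred strains C57BL/6J, A/J and BALB/c. C57BL/6J mice are pigmented and the others albino, and the study set them side by side because their retinas degenerate at different rates. Each strain had 3 libraries of poly(A) RNA, 9 in all, each from a pool of 5 mice. The labels leave unsaid whether a strain's libraries came from separate pools, so p-values reflect differences between libraries that may be partly technical.

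In a sarcomere, myosin heavy chains with their light chains form the thick filament, actin with tropomyosin and the troponin complex forms the thin filament, and calcium released from the sarcoplasmic reticulum binds troponin C and lets the filaments slide. Fast and slow fibres build this machine from different members of the same families, so the isoforms present describe the fibre types. Extraocular muscles, which move the eyeball and insert on the sclera, are unusual in keeping many isoforms together in adult life, including developmental heavy chains, slow forms and the heavy chain of Myh13. An enucleated eye carries the stumps of these muscles, and also the smooth muscle of the ciliary body, iris and vessels. In such bulk RNA, fewer muscle cells and less RNA per muscle cell cannot be told apart.

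The labels name no unit, and values were taken as RPKM. RPKM are reads scaled by transcript length and by the mapped reads of the library, which allows levels of different genes to be compared. Comparisons between genes rest on this reading of the values. Strain means are given ± SD over n = 3 libraries. Differences are log2 changes ± standard error (SE) of scaled RPKM with 0.5 added, from limma, and a call means an adjusted p under 0.05 over all 12920 genes tested. Sequencing depth is unknown, so no counting error can be given.

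The label extraocular muscle was held against the markers in the tables. Myh13 was listed above 0 in all 9 libraries, from 0.33 to 7.70 RPKM, and the fast, slow and developmental heavy chains were present beside it. Myh13 shares part of its sequence with other genes, and the part of shared reads in its values was not tested. The 38 striated genes together took 0.318% to 0.6% of all listed RPKM. Myh7 and Myl2, which heart and slow fibres share, were far below the fast chains Myh4 and Mylpf in every library. Whole-eye RNA gives no way to assign a gene to a particular muscle.

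Libraries of a strain did not carry equal amounts of these genes. The summed RPKM of the 38 striated genes was 2550.7, 3156.5 and 2100.5 in A/J 1 to 3, 2423.6, 1877.5 and 1922.6 in BALB/c 1 to 3, and 2944.0, 2599.3 and 2872.2 in C57BL/6J 1 to 3. Within strains, A/J 2 held the highest value for 26 of the 38 genes and BALB/c 1 for 30, whereas A/J 3 held the lowest for 23 and C57BL/6J 3 for 27. The median SD of a striated gene on the log2 scale was 0.45 for C57BL/6J, against 0.25 for all genes, 0.26 against 0.26 in A/J and 0.16 against 0.1 for BALB/c. C57BL/6J 3 departed in both directions: most striated genes were low, but Tnnt3, Tnnt2, Tpm1, Atp2a2 and Atp2a3 were far above every other library. Deviations of all genes also followed the GC content of their transcripts differently by library, with Spearman correlations across genes of -0.65, -0.72 and 0.46 in A/J 1 to 3, 0.09, 0.56 and 0.54 for BALB/c, and -0.3, 0.24 and 0.39 for C57BL/6J. The part of these trends in the results below was not tested beyond a fit corrected for GC content.

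**Figure D1:**
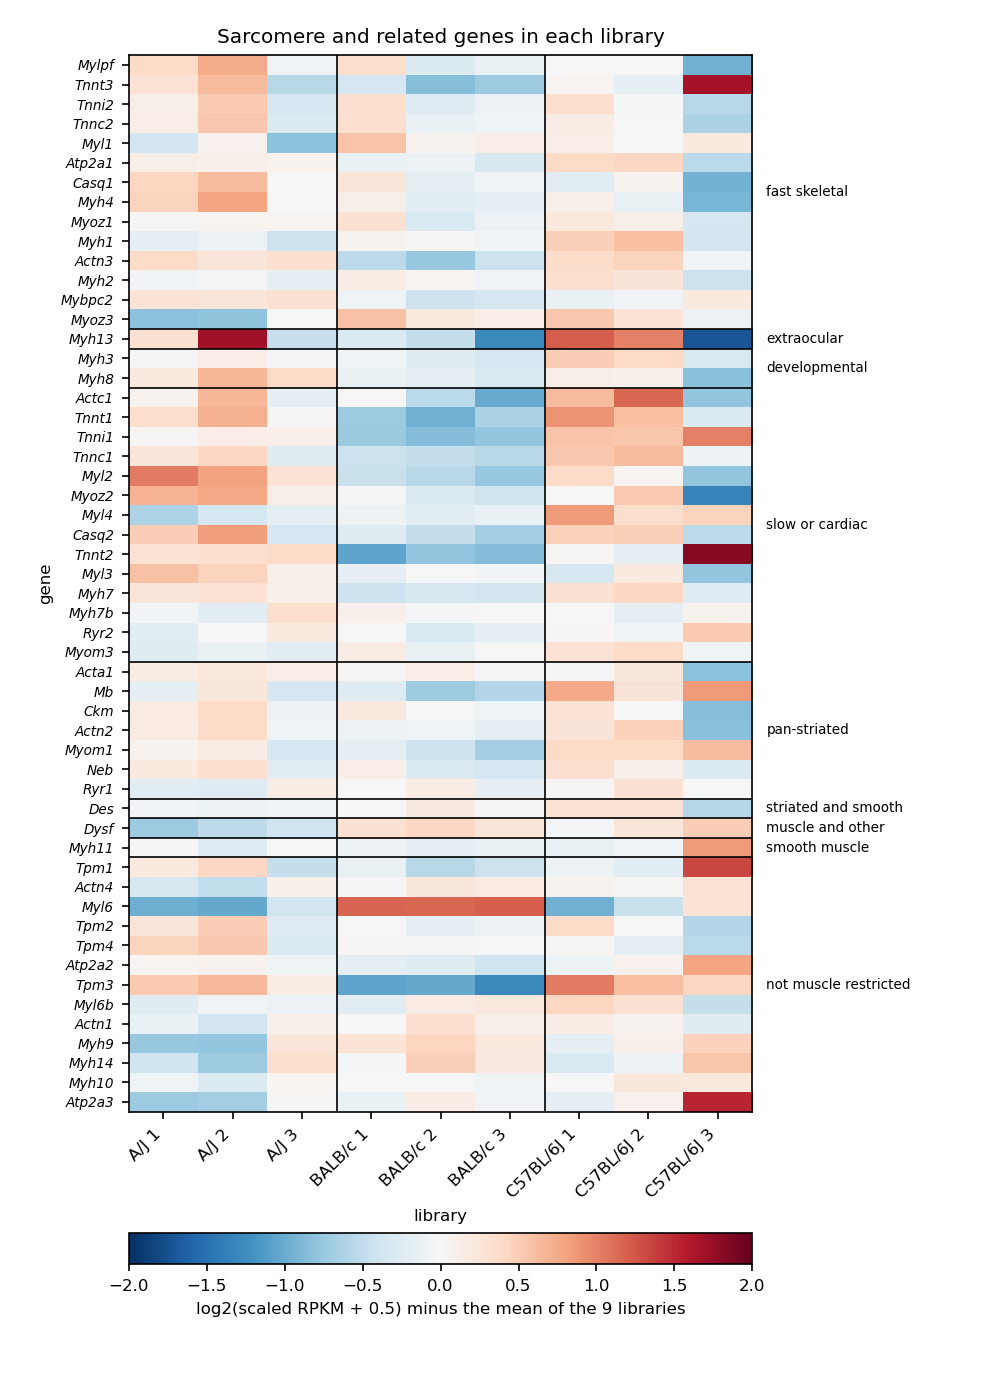
Heat map of the 54 genes (rows, grouped by where each is used) in the 9 libraries (columns). Colour is log2(scaled RPKM + 0.5) minus the gene's mean over the 9 libraries, red above and blue below it. C57BL/6J 3 is blue for most striated genes but deep red for Tnnt3, Tnnt2, Tpm1 and Atp2a3. BALB/c columns are pale blue in most of the slow or cardiac rows and red for Myl6.

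Few of the 54 genes differed between strains beyond the spread of their libraries. In A/J minus C57BL/6J, limma called 2 of 54, both lower (Myl4 and Dysf), where 2.69% of all genes were called (1.08% higher, 1.62% lower). In BALB/c minus C57BL/6J it called 6 of 54, with 5 lower (Tpm3, Tnni1, Mb, Myom1 and Actn3) and 1 higher (Myl6), where 3.09% of all genes were called (1.93% higher, 1.15% lower). In A/J minus BALB/c it called 5 of 54, with 3 higher (Tpm3, Tnni1 and Actn3) and 2 lower (Myl6 and Dysf), where 2.48% of all genes were called (0.573% higher, 1.9% lower). The F test over all strains called 7 of 54, 13.0%, against 4.47% of all genes. At an unadjusted p under 0.05 there were 13, 13 and 15 of the 54 in the same order, and 2265, 1778 and 2705 of all 12920. In all, 8 of the 54 were called in at least 1 comparison and 46 in none, beside 671 of all 12920 genes (5.19%) called in at least 1. The 3 comparisons share their libraries in pairs, so a gene that stands apart in 1 strain is counted in more than 1 of them.

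The median log2 change of the 38 striated genes was 0.05 in A/J minus C57BL/6J, -0.22 in BALB/c minus C57BL/6J and 0.37 in A/J minus BALB/c, beside a median of -0.01 over all genes in each. Single libraries moved these medians: without C57BL/6J 3 the first was -0.13 and the second -0.43, without C57BL/6J 2 they were 0.13 and -0.11, without C57BL/6J 1 0.14 and -0.14, without A/J 1 the first was 0.01, and without A/J 2 the first was -0.07 and the third 0.24. Of the 38, 26 had a value below 0 in BALB/c minus C57BL/6J and 31 a value above 0 in A/J minus BALB/c. These sides were not made of calls: 4 striated genes were called in the first of these comparisons and 2 in the second. The lower side of BALB/c was clearest in the slow or cardiac group, where the median was -0.56 against C57BL/6J and A/J stood 0.66 above BALB/c. In the fast skeletal group the corresponding medians were 0.02 and 0.19. Without C57BL/6J 3, the medians against C57BL/6J were -0.79 for the slow or cardiac and -0.18 for the fast skeletal genes. The fast median also fell below 0 without BALB/c 1 (-0.09) and with values as deposited (-0.15), and was 0.14 without C57BL/6J 1. The fast group thus had no firm side against C57BL/6J. In A/J minus BALB/c the fast median was above 0 in the main fit and stayed between 0.12 and 0.39 in nearly all settings. It was 0.39 with GC correction, and fell below 0 (-0.02) only without both A/J 1 and A/J 2. Among the 13 genes of many cell types the medians were -0.02 and -0.2.

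**Figure D2:**
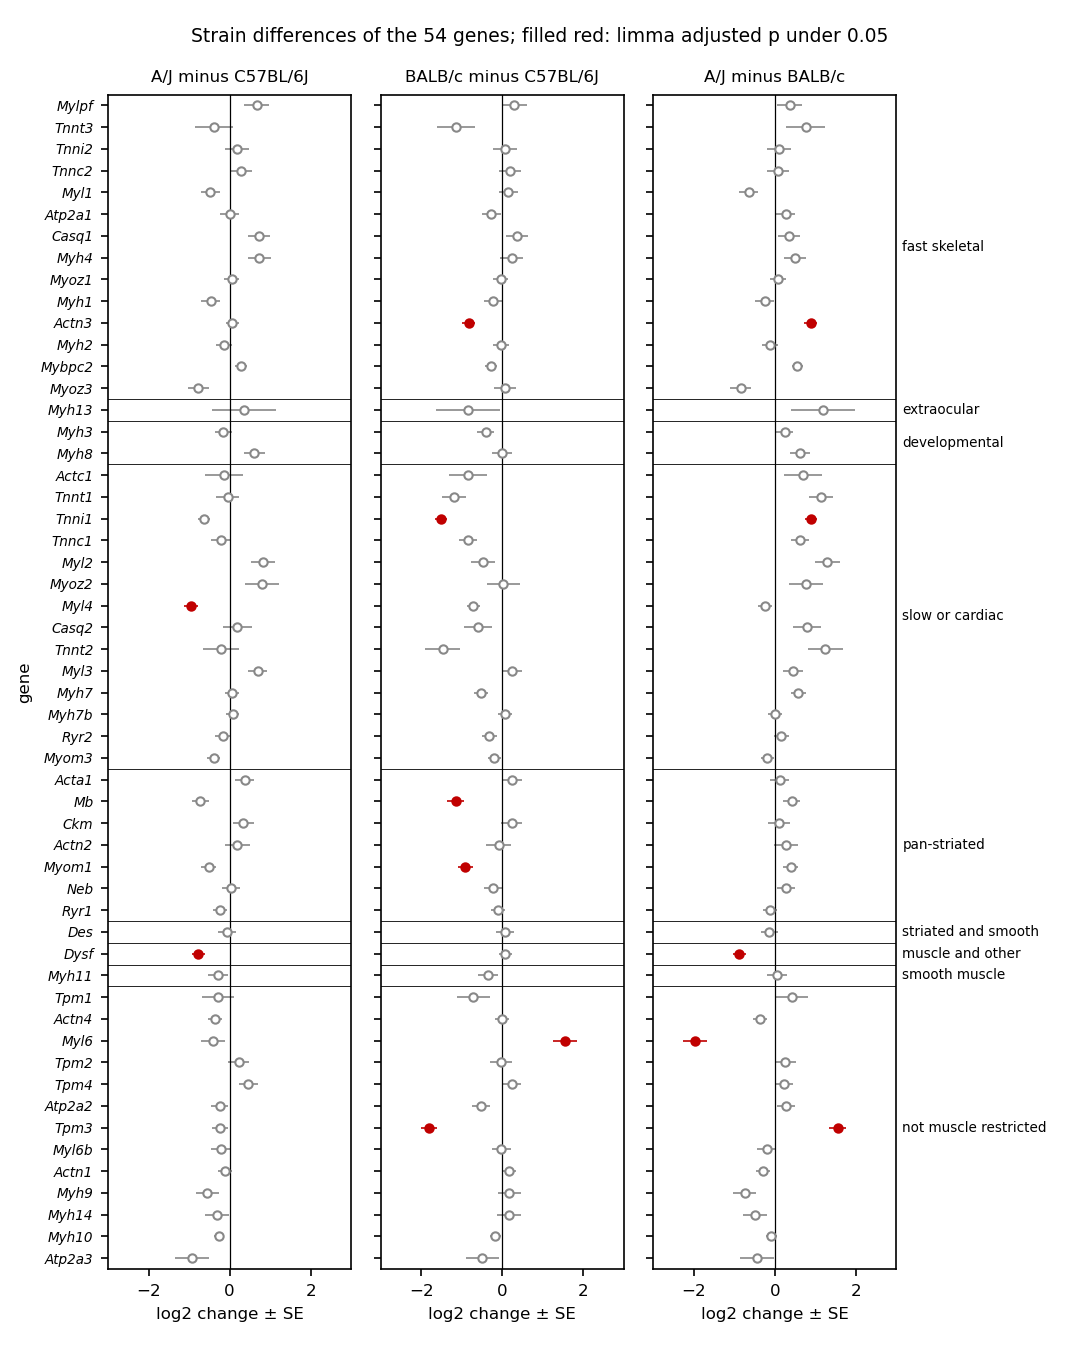
Log2 changes of the 54 genes in the 3 strain comparisons (columns), with bars of 1 SE. Filled red points passed limma's adjusted p of 0.05 and open points did not. Tpm3 and Tnni1 lie left of 0 in BALB/c minus C57BL/6J and right of 0 in A/J minus BALB/c, and Myl6 lies on the opposite sides.

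Troponin has 3 subunits: troponin C binds calcium, troponin I blocks the filament at rest, and troponin T ties the complex to tropomyosin. Tnni1, the slow skeletal troponin I, was at 14.84, 16.24 and 16.10 RPKM in A/J 1 to 3, at 8.30, 7.42 and 7.94 in BALB/c 1 to 3, and at 23.53, 22.29 and 35.28 in C57BL/6J 1 to 3. The 3 strains did not overlap, with BALB/c lowest, A/J between and C57BL/6J highest. The log2 change of Tnni1 was -1.51 ± 0.14 in BALB/c minus C57BL/6J (limma adjusted p = 0.00054) and 0.89 ± 0.14 in A/J minus BALB/c (adjusted p = 0.012). It was -0.63 ± 0.14 in A/J minus C57BL/6J, which did not pass (adjusted p = 0.06). The first of these calls held in all 20 alternative settings, with a highest adjusted p of 0.0062. The call of A/J minus BALB/c was lost in 6 of 20, namely without A/J 1, without A/J 2, without any 1 of the BALB/c libraries, and without both A/J 1 and A/J 2 (adjusted p up to 0.22). Of the sequence of Tnni1, taken as its 31-base words, 0.41% occurs at another annotated gene.

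Tnni2, the fast troponin I, did not follow. It was at 252.89, 342.21 and 189.79 RPKM for A/J, 285.24, 187.56 and 210.21 for BALB/c, and 317.16, 237.42 and 188.71 for C57BL/6J. All 3 strains overlapped, and the log2 change in BALB/c minus C57BL/6J was 0.07 ± 0.29 (adjusted p = 0.96). As a share of Tnni1 and Tnni2 together, Tnni1 was 5.96% ± 1.68 for A/J, 3.42% ± 0.523 for BALB/c and 10.4% ± 4.7 for C57BL/6J. The C57BL/6J mean leaned on the third library, whose share was 15.8% where the other two stood at 6.91% and 8.58%, yet each of the 3 was above every BALB/c share.

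Slow troponin T, Tnnt1, had values of 35.39, 45.89 and 29.12 RPKM for A/J, 15.97, 13.26 and 17.11 for BALB/c, and 55.57, 43.39 and 27.16 for C57BL/6J. Every BALB/c library was below every library of the other strains, but the change missed the threshold (log2 -1.19 ± 0.29, limma adjusted p = 0.076 in BALB/c minus C57BL/6J, and 1.14 ± 0.29, adjusted p = 0.09 in A/J minus BALB/c). The first was called without C57BL/6J 3 and with values as deposited. Slow and cardiac troponin C, Tnnc1, stood at 12.1 ± 2.66 RPKM for A/J, 7.18 ± 0.31 for BALB/c and 15.2 ± 3.02 for C57BL/6J, also with BALB/c apart from both other strains and with no call (adjusted p = 0.1 and 0.19). Cardiac troponin T, Tnnt2, which skeletal muscle makes mainly before maturity, was between 0.72 and 0.95 RPKM for BALB/c and between 1.84 and 2.97 in 5 of the other 6 libraries. Its sixth value, 10.18 in C57BL/6J 3, put the SD of that strain at 4.7 around a mean of 4.76, and neither comparison with BALB/c passed (adjusted p = 0.15 and 0.18).

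Tnnt3, fast troponin T, was the gene in which C57BL/6J 3 stood out most in RPKM. Its value there was 899.31 RPKM, where the other 8 libraries lay between 126.59 and 373.89. Like the slow Tnnt1, it was lower in every BALB/c than in every C57BL/6J library, without a call (log2 -1.15 ± 0.47, limma adjusted p = 0.33). The share of Tnnt1 in Tnnt1 and Tnnt3 was therefore 2.93% in C57BL/6J 3, against 17.3% and 16.7% in C57BL/6J 1 and 2, 10.8%, 10.9% and 14.8% for A/J, and 7.98%, 9.48% and 10.9% for BALB/c. Tnnc2, fast troponin C, ranged from 166.95 to 318.12 RPKM with all strains overlapping. A share of 59.0% of its 31-base words also occurs elsewhere, so its level is uncertain. Ube2c, which overlaps it, shares the most of them.

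**Figure D3:**
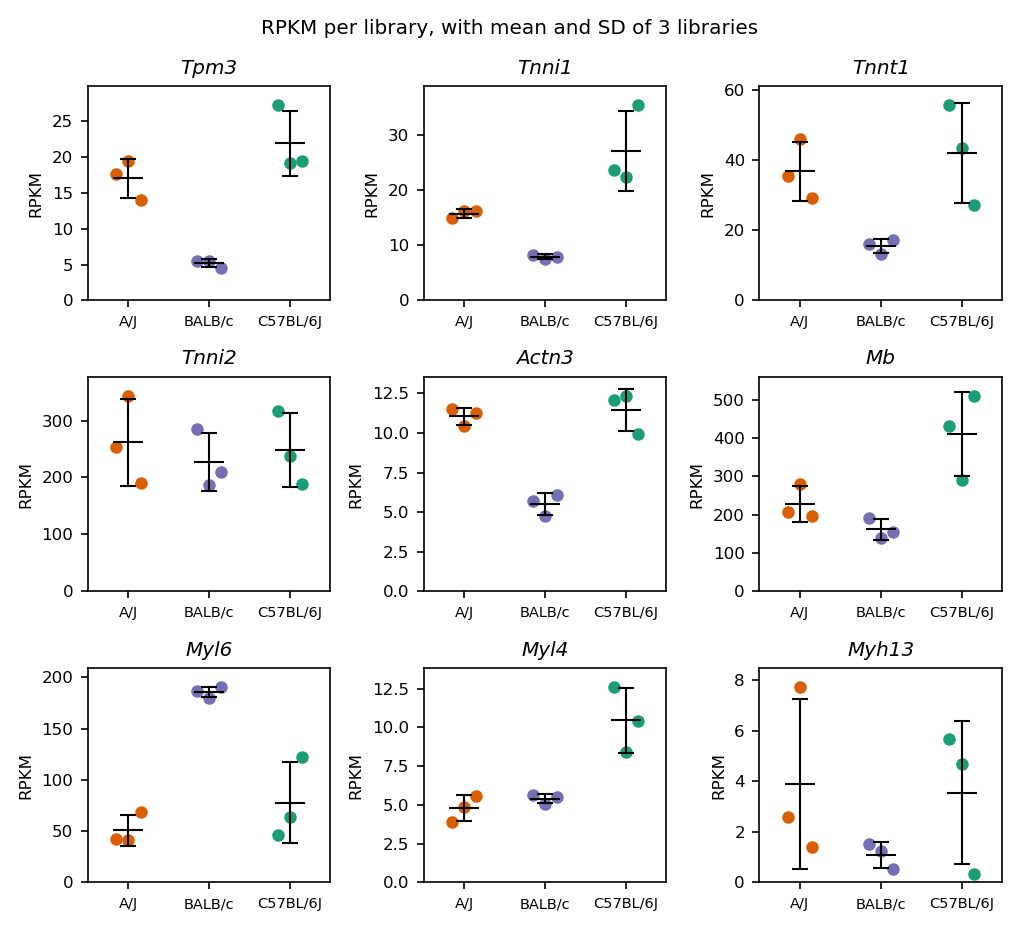
RPKM of 9 genes in each library (points), with the mean (long tick) and SD (bars) of the 3 libraries of a strain; all axes start at 0. BALB/c points are the lowest for Tpm3, Tnni1, Tnnt1, Actn3 and Mb and the highest for Myl6, while Tnni2 overlaps in all strains and Myh13 is lowest in C57BL/6J 3, at 0.33 RPKM.

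Tropomyosin lies along the actin filament and is moved by troponin. Tpm3 encodes the slow-fibre tropomyosin from an upstream start and cytoskeletal forms of many cells from a downstream one, and a gene-level value joins them. It was at 17.60, 19.48 and 14.06 RPKM in A/J 1 to 3, at 5.48, 5.52 and 4.57 in BALB/c 1 to 3, and at 27.21, 19.20 and 19.40 in C57BL/6J 1 to 3. BALB/c did not overlap with the other strains, and the lowest value elsewhere was more than 2 times the highest in BALB/c. The log2 change was -1.80 ± 0.20 in BALB/c minus C57BL/6J (limma adjusted p = 0.0013) and 1.55 ± 0.20 in A/J minus BALB/c (adjusted p = 0.004), and -0.24 ± 0.20 in A/J minus C57BL/6J (adjusted p = 0.46). The call against C57BL/6J held in all 20 alternatives, with a highest adjusted p of 0.012. That of A/J minus BALB/c was lost in 1 of 20, without both A/J 1 and A/J 2 (adjusted p = 0.14). A share of 27.0% of the 31-base words of Tpm3 is also found at another gene, most of it at the related copy Tpm3-rs7, and how the authors counted reads that match both is not given in the sources used here, so the size of this difference is uncertain.

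The other tropomyosins did not separate BALB/c. Tpm2, the beta form, was at 100.0 ± 24.1 RPKM for A/J, 78.4 ± 4.9 for BALB/c and 93.3 ± 26.8 for C57BL/6J. Tpm4, a mainly cytoskeletal form, stood at 48.5 ± 13.4, 38.3 ± 1.07 and 37.1 ± 5.45 RPKM in the same order. Tpm1, the alpha form of fast and cardiac muscle and of many other cells, was between 91.89 and 191.24 RPKM in 8 libraries and at 424.10 in C57BL/6J 3. None of the 3 was called in any comparison.

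The starts of Tnni1 and Tpm3, the genes with the firmest differences, are shown with those of Myh4 and Myh13, the most abundant and the extraocular heavy chain, which were not called. Each sequence is the 250 bases before a start listed by RefSeq (GRCm38.p6), 5′ to 3′ on the gene's strand, with every E-box (CANNTG, a motif bound by myogenic factors) in capitals. The tables were made on an older build, so the coordinates belong to the sequences and not to the measurements.
Tnni1, chr1:135799171-135799420 (plus strand): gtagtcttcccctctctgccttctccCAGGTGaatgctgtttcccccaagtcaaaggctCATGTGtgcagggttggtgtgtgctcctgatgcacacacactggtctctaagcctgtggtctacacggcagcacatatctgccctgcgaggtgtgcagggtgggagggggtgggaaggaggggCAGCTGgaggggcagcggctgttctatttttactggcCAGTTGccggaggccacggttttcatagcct
Tpm3 upstream start, chr3:90072401-90072650 (plus strand): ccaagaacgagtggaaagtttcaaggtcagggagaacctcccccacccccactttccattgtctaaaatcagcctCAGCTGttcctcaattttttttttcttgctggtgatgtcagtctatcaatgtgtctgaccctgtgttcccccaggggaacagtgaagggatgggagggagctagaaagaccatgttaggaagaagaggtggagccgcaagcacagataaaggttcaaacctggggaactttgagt
Tpm3 downstream start, chr3:90079271-90079520 (plus strand): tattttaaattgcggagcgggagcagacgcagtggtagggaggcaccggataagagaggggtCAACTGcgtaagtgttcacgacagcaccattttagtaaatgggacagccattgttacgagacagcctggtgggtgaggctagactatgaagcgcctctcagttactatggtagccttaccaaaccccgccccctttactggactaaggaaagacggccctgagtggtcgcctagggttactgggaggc
Myh4, chr11:67237562-67237811 (plus strand): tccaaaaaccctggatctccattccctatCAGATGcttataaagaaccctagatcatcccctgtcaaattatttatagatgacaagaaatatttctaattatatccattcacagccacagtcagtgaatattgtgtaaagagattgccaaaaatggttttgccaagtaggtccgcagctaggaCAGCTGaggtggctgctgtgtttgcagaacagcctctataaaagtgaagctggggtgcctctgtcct
Myh13, chr11:67326853-67327102 (plus strand): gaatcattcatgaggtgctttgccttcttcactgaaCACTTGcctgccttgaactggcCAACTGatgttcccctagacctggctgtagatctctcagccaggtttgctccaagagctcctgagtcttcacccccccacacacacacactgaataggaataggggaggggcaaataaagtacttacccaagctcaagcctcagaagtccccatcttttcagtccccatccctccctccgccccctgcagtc

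Tnni1 held 4 E-boxes in this window, Myh4 and Myh13 held 2 each, and each Tpm3 start held 1. RefSeq lists another start of Tnni1 just downstream, whose window overlaps the printed one and held 2. An E-box lay in 86.8% of 38 promoters of 32 striated genes and in 66.2% of all 32851 promoters of the same length. CAGCTG, an E-box form read the same on both strands, lay in 36.8% and 13.0%. It occurred before Tnni1, before the upstream start of Tpm3 and before Myh4, but not before the downstream start of Tpm3 or before Myh13. The motif TATAAA, searched on both strands, was in 21.1% of the striated and 12.4% of all promoters. The MEF2 box, on either strand, was in 15.8% and 2.9% and the CArG box in 13.2% and 1.5%, and of the printed sequences Myh4 held both. A match describes letters only, and the sequences come from the reference genome, not from the libraries studied.

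The heavy chain is the motor of the thick filament and the usual basis for naming fibre types. The genes Myh3, Myh2, Myh1, Myh4, Myh8 and Myh13 stand in that order on mouse chromosome 11, and they are alike enough to share reads: 42.9% of the 31-base words of Myh1, 34.5% of those of Myh2 and 30.4% of those of Myh4 occur at another gene, as do 27.9% of those of Myh7. The share was 18.6% for Myh8, 13.4% for Myh13 and 11.1% for Myh3. The levels of all these genes are therefore uncertain to that extent. Myh4, the heavy chain of the fastest (type 2B) fibres, was the most abundant sarcomeric heavy chain in every library, at 45.60, 58.34 and 34.67 RPKM for A/J, 35.42, 27.49 and 28.58 for BALB/c, and 38.29, 30.84 and 20.84 for C57BL/6J. The strains overlapped, and Myh4 was not called (log2 0.73, limma adjusted p = 0.24 in A/J minus C57BL/6J).

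Next in level over the libraries was Myh3, the embryonic heavy chain, at 18.13, 20.55 and 18.68 RPKM for A/J, 16.90, 14.85 and 14.03 for BALB/c, and 28.01, 25.12 and 17.58 for C57BL/6J. BALB/c was below every other library, without a call (adjusted p = 0.43 against C57BL/6J). Myh8, the neonatal chain, was much lower, between 0.93 and 3.11 RPKM. The adult chains Myh1 (type 2X) and Myh2 (type 2A) ranged from 11.03 to 22.58 and from 7.57 to 11.82 RPKM. For Myh1, C57BL/6J 1 and 2 stood highest (21.47 and 22.58), but C57BL/6J 3 (12.96) lay among the A/J and BALB/c values.

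Myh13, the heavy chain named for extraocular muscle, was at 2.60, 7.70 and 1.38 RPKM for A/J, 1.52, 1.25 and 0.52 for BALB/c, and 5.65, 4.67 and 0.33 for C57BL/6J. Its highest value, in A/J 2, was 23.3 times its lowest, in C57BL/6J 3, a wider span than in any other of the 54 genes. The libraries of A/J and of C57BL/6J spread widely and overlapped with each other and with BALB/c, and no comparison passed (adjusted p = 0.37 to 0.79). With both A/J 3 and C57BL/6J 3 left out, Myh13 was called in BALB/c minus C57BL/6J and in A/J minus BALB/c. In that fit 14.9% and 59.9% of all genes were called in these comparisons. It was the only 1 of 20 alternatives to call Myh13 in either.

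The slow heavy chain Myh7 was low in all strains, at 1.57, 1.65 and 1.42 RPKM for A/J, 0.79, 0.87 and 0.84 for BALB/c, and 1.77, 1.89 and 1.14 for C57BL/6J. BALB/c again lay below every other library, without a call (log2 -0.52, adjusted p = 0.23 against C57BL/6J, and 0.58, adjusted p = 0.16 in A/J minus BALB/c). Myh7b, a slow chain found in extraocular muscle, was between 1.04 and 1.82 RPKM with full overlap. Myh11, the smooth muscle chain, was between 11.71 and 14.39 RPKM in 8 libraries and at 30.25 in C57BL/6J 3. The non-muscle chains Myh9, Myh10 and Myh14 ranged from 6.24 to 18.54 RPKM, and none was called.

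The mix of heavy chains was also taken as a percent of the summed RPKM of the 8 sarcomeric ones. Myh4 made up 49.5%, 51.1% and 43.6% for A/J, 43.5%, 39.5% and 42.1% for BALB/c, and 34.7%, 31.2% and 33.1% for C57BL/6J. Its share was highest in A/J and lowest in C57BL/6J, with no overlap between C57BL/6J and the other strains. Myh1 ran the other way, at 13.6%, 11.6% and 13.9% for A/J, 17.9%, 20.1% and 19.7% for BALB/c, and 19.4%, 22.8% and 20.6% for C57BL/6J. Myh3 held 20.4% ± 2.82, 20.9% ± 0.375 and 26.2% ± 1.47 for A/J, BALB/c and C57BL/6J, and Myh2 held 8.84% ± 1.27, 11.9% ± 0.376 and 11.2% ± 0.712. Myh13 made up 0.524% to 6.75%, and Myh8, Myh7 and Myh7b were at 3.2% or less in every library. In C57BL/6J 3 the shares of Myh4 and Myh1 lay between those of C57BL/6J 1 and 2, but Myh13 was at 0.524% against 5.11% and 4.72%, and Myh7b at 2.57% against 1.22% and 1.09%. In A/J 3 the share of Myh4 was the lowest of its strain and next to the highest of BALB/c, and that of Myh3 was 23.5% against 19.7% and 18.0%. Since shares within a library depend on each other and on how shared reads were assigned, they are given without a test. Relative to Ckm in place of the heavy chain sum, the log2 ratio of Myh4 was 0.41 in A/J over C57BL/6J and 0.01 for BALB/c over C57BL/6J.

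**Figure D4:**
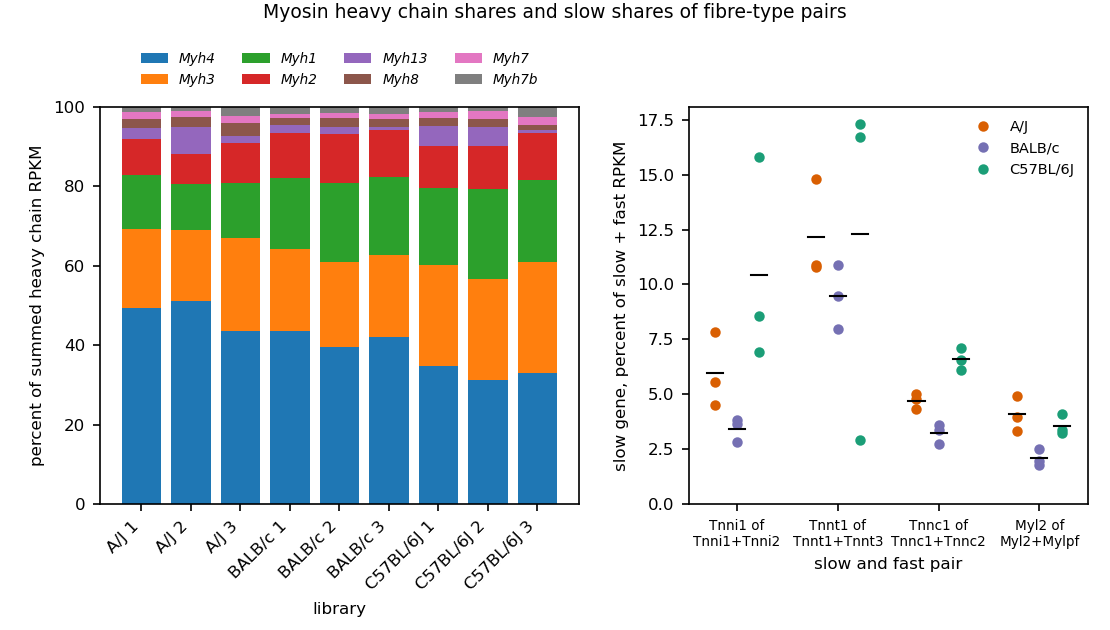
Left, the 8 sarcomeric heavy chains as percent of their summed RPKM in each library; Myh4 is the largest part, from 31.2% to 51.1%. Right, the slow gene as percent of a slow and fast pair in each library (points; short lines are strain means); BALB/c lies lowest for Tnni1, Tnnc1 and Myl2, and 1 C57BL/6J library is at 2.93% for Tnnt1.

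Light chains clasp the neck of the heavy chain. Mylpf, the fast regulatory light chain, was among the most abundant members, at 370.24, 478.71 and 278.06 RPKM for A/J, 352.92, 223.74 and 248.81 for BALB/c, and 301.58, 292.63 and 173.10 for C57BL/6J, with overlap among all strains. Myl1, the fast essential light chain, ranged from 85.17 to 211.04 RPKM and also overlapped. Their slow and cardiac counterparts were low: Myl2 was at 15.7 ± 3.9 RPKM for A/J, 5.73 ± 0.676 for BALB/c and 9.58 ± 3.45 for C57BL/6J, and Myl3 at 2.96 ± 0.522, 1.92 ± 0.117 and 1.82 ± 0.681. Every A/J value of Myl2 was above every BALB/c value, and the change fell short of a call (log2 1.30, limma adjusted p = 0.067).

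Myl4, the light chain of atrium and developing muscle, was at 3.90, 4.85 and 5.59 RPKM for A/J, 5.65, 5.05 and 5.54 for BALB/c, and 12.58, 8.40 and 10.42 for C57BL/6J. C57BL/6J was above every library of the other strains. The A/J level was called lower than that of C57BL/6J (log2 -0.95 ± 0.17, adjusted p = 0.019), and that of BALB/c did not pass (-0.71 ± 0.17, adjusted p = 0.068). The A/J call was lost in 6 of 20 alternatives, among them the omission of A/J 1, A/J 2, C57BL/6J 1 or BALB/c 3 and the fit with only the 2 strains (adjusted p up to 0.31).

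Myl6, the light chain of non-muscle and smooth muscle myosin, was the 1 member called higher in BALB/c than in both other strains. It was at 42.72, 41.81 and 68.25 RPKM for A/J, 186.60, 179.94 and 189.98 for BALB/c, and 46.35, 64.10 and 121.96 for C57BL/6J. BALB/c stood above all other libraries, and C57BL/6J 3 was the highest of the rest. The log2 change was 1.55 ± 0.30 in BALB/c minus C57BL/6J (adjusted p = 0.025) and -1.96 ± 0.30 in A/J minus BALB/c (adjusted p = 0.0092). The first was lost in 6 of 20 alternatives (values as deposited, and without any 1 of BALB/c 1, 2 or 3 or of C57BL/6J 1 or 2, with adjusted p up to 0.12), and the second in 4 of 20 (when BALB/c 2, BALB/c 3, A/J 1, or both A/J 1 and A/J 2 were left out, with adjusted p up to 0.3). Of its 31-base words, 11.4% occur elsewhere, and the annotated copy Gm5526 shares the most of them. Its relative Myl6b lay between 11.56 and 20.20 RPKM with no call, and Acta2, the smooth muscle actin, was at 90.7 ± 5.21, 103.0 ± 8.53 and 129.0 ± 22.6 RPKM for A/J, BALB/c and C57BL/6J, an order unlike that of Myl6.

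Mybpc2, the fast form of myosin-binding protein C that braces the thick filament, was at 8.92, 8.84 and 9.47 RPKM for A/J, 6.63, 5.11 and 5.54 for BALB/c, and 7.10, 7.14 and 10.02 for C57BL/6J. BALB/c was lowest without overlap, and no comparison passed (adjusted p = 0.085 in A/J minus BALB/c). Of the sarcomeric actins, skeletal Acta1 was at 336.60, 356.54 and 346.60 RPKM for A/J, 300.26, 320.17 and 291.59 for BALB/c, and 318.86, 368.60 and 204.63 for C57BL/6J. Cardiac Actc1, which developing and regenerating skeletal muscle also makes, was at 35.3 ± 11.0, 20.8 ± 7.46 and 46.0 ± 24.2 RPKM. Neither actin was called.

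The Z-disc anchors the thin filaments, with alpha-actinin as its cross-link. Actn3, the form restricted to fast fibres, was at 11.48, 10.46 and 11.26 RPKM for A/J, 5.72, 4.73 and 6.11 for BALB/c, and 12.09, 12.30 and 9.94 for C57BL/6J. Every BALB/c library was below every other library. The log2 change was -0.82 ± 0.16 in BALB/c minus C57BL/6J (limma adjusted p = 0.028) and 0.89 ± 0.16 in A/J minus BALB/c (adjusted p = 0.022). The first of these calls was less stable than those of Tnni1 and Tpm3 in the same comparison. It was lost in 10 of 20 alternatives, including the GC correction and the omission of A/J 1, of any BALB/c library, of C57BL/6J 1 or of C57BL/6J 2 (adjusted p up to 0.15). The second was lost in 6 of 20, without A/J 1, without A/J 2, without any 1 BALB/c library and without both A/J 1 and A/J 2 (adjusted p up to 0.31). Actn2, the form of all striated fibres, was at 15.3 ± 2.38, 11.9 ± 0.393 and 15.1 ± 5.62 RPKM for A/J, BALB/c and C57BL/6J, without a call. Its BALB/c values (11.45 to 12.19) lay below every A/J value and below C57BL/6J 1 and 2, but above C57BL/6J 3 (8.71). The non-muscle Actn4 did not share the pattern of Actn3, at 123.0 ± 29.2, 148.0 ± 12.3 and 169.0 ± 28.8. Myoz1, the calsarcin of fast fibres, was at 23.0 ± 0.6, 21.0 ± 4.91 and 24.1 ± 3.39 RPKM. The slow calsarcin Myoz2 was at 10.9 ± 2.47, 5.81 ± 0.828 and 7.13 ± 3.9, and Myoz3 at 1.15 ± 0.598, 2.25 ± 0.492 and 2.40 ± 0.541, again with no call.

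Myomesin links thick filaments at the M-band. Myom1 was at 5.27, 5.69 and 3.93 RPKM for A/J, 4.21, 3.46 and 2.86 for BALB/c, and 7.26, 6.97 and 9.48 for C57BL/6J. C57BL/6J was above all other libraries. The log2 change of -0.91 ± 0.18 in BALB/c minus C57BL/6J passed (adjusted p = 0.034), and was lost in 7 of 20 alternatives, the omission of A/J 1, of any BALB/c library or of any C57BL/6J library (adjusted p up to 0.17). Myom3 was near 1 RPKM, from 0.86 to 1.64. Nebulin (Neb), the ruler of the thin filament, was between 1.58 and 3.11 RPKM, and desmin (Des), the intermediate filament that joins Z-discs, between 26.56 and 43.31, with no call for any of the 3.

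Of 7 calcium handling genes none was called by limma in any comparison, with 2, 1 and 0 at an unadjusted p under 0.05 in A/J minus C57BL/6J, in BALB/c minus C57BL/6J and in A/J minus BALB/c. Atp2a1, the calcium pump of fast fibres, was at 149.40, 149.34 and 149.34 RPKM for A/J, 122.79, 123.17 and 107.83 for BALB/c, and 195.02, 190.16 and 112.55 for C57BL/6J. C57BL/6J 3 thus lay in the BALB/c range while the other two C57BL/6J libraries were highest. Atp2a2, the pump of slow fibres and of many other cells, was between 26.75 and 39.94 RPKM in 8 libraries and at 75.83 in C57BL/6J 3, and Atp2a3 was between 0.57 and 1.42 in those 8 and at 5.41 in that library. Calsequestrin, which stores calcium in the reticulum, was mainly the fast form Casq1, at 64.5 ± 13.1, 47.6 ± 7.87 and 42.5 ± 11.6 RPKM. Its slow and cardiac form Casq2 took 7.49% ± 1.64 of the pair in A/J, 5.26% ± 0.624 for BALB/c and 10.3% ± 1.28 for C57BL/6J. The release channels Ryr1 of skeletal muscle and Ryr2 of heart and brain were low, at 1.44 to 2.42 and 0.77 to 2.15 RPKM.

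Myoglobin (Mb), the oxygen store of oxidative fibres, was at 208.24, 281.29 and 195.48 RPKM for A/J, 192.41, 138.31 and 154.44 for BALB/c, and 431.69, 291.68 and 508.35 for C57BL/6J. The 3 strains did not overlap, although A/J 3 (195.48) and BALB/c 1 (192.41) nearly met. The log2 change of -1.14 ± 0.21 in BALB/c minus C57BL/6J passed (limma adjusted p = 0.023), and that in A/J minus C57BL/6J did not (-0.72 ± 0.21, adjusted p = 0.15). The call was lost in 5 of 20 alternatives, without BALB/c 2, BALB/c 3, C57BL/6J 1 or C57BL/6J 3 and in the replicate block with GC correction (adjusted p up to 0.13). Of the 31-base words of Mb, 27.7% also occur at another gene, and the overlapping annotated gene Gm49540 shares the most of them. Muscle creatine kinase (Ckm), which buffers ATP in all striated fibres, was at 223.43, 264.23 and 190.14 RPKM for A/J, 220.95, 191.02 and 183.02 for BALB/c, and 259.98, 206.00 and 130.91 for C57BL/6J, overlapping throughout.

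Dysferlin (Dysf) repairs the muscle membrane, and A/J mice are known to carry an insertion in this gene. It was at 0.32, 0.44 and 0.54 RPKM for A/J, 1.13, 1.23 and 1.05 for BALB/c, and 0.88, 1.12 and 1.64 for C57BL/6J. A/J was below every other library, at values close to the 0.5 added before the logarithm. The log2 change was -0.78 ± 0.16 in A/J minus C57BL/6J (limma adjusted p = 0.041), and -0.87 ± 0.16 in A/J minus BALB/c (adjusted p = 0.027). The first was called in 9 of 20 alternatives, the GC correction alone among them. It was lost with quantile normalization and with every omission of 1 library except that of C57BL/6J 1 or A/J 3. It was also lost with the replicate block and GC correction together, and with only the 2 strains compared. Over omissions of 1 library the limma adjusted p reached 0.19. The second was lost in 9 of 20, with values as deposited, with quantile normalization and after omission of any BALB/c library, A/J 1 or A/J 2 among them (adjusted p up to 0.42). The part of the insertion in these values was not tested.

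Across 9 pairs of related genes, a share was taken of the slow or cardiac gene, or of Actn2 for the alpha-actinins. The mean share was lowest in BALB/c for 6: each troponin subunit, the regulatory light chain, calsequestrin and alpha actin. For troponin T the libraries of BALB/c overlapped with those of both other strains. They overlapped with A/J for calsequestrin (BALB/c 2 at 5.89%, A/J 3 at 5.67%) and alpha actin (BALB/c 1 at 8.76%, A/J 1 at 8.5%). The alpha-actinins pair a form of all striated fibres with a fast one. There Actn2 was at 57.9% ± 4.73 of Actn2 and Actn3 for A/J, 68.4% ± 3.31 for BALB/c and 55.6% ± 7.73 for C57BL/6J. For Tnnc1 the share was 5.02%, 4.33% and 4.76% for A/J, 2.74%, 3.62% and 3.35% for BALB/c, and 6.1%, 7.11% and 6.56% for C57BL/6J. The 3 strains were thus separate and C57BL/6J 3 lay with its strain. The share of Myl2 in Myl2 and Mylpf was 4.94%, 3.32% and 3.98% for A/J, 1.78%, 2.51% and 1.98% for BALB/c, and 4.1%, 3.25% and 3.36% for C57BL/6J. The essential light chains had another order, with Myl3 at 2.55% ± 0.547 of the pair in A/J, 1.15% ± 0.269 for BALB/c and 1.09% ± 0.546 for C57BL/6J. Likewise Myoz2 took 31.9% ± 5.58 of Myoz1 and Myoz2 for A/J, and 21.9% ± 2.39 and 21.7% ± 8.88 in the other strains. Cardiac actin made up 9.18% ± 2.38, 6.36% ± 2.15 and 12.7% ± 3.39 of the alpha actins. No share was tested, and of the partner genes in these pairs only Actn3 was called in any comparison.

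How many members were called depended on single libraries. Without A/J 3 the counts in the 3 comparisons, taken in the order above, were 11, 8 and 16, and without C57BL/6J 3 they were 2, 10 and 10. Leaving out any 1 of the other 7 libraries lowered or kept each count, for example to 0, 2 and 1 without BALB/c 3 and to 0, 4 and 1 without A/J 1. With both A/J 3 and C57BL/6J 3 left out, 23, 20 and 37 of the 54 were called in the same order, while 39.7%, 14.9% and 59.9% of all genes tested were called. With that fit, 9 of the 23 called in A/J minus C57BL/6J were higher and 14 lower, where 19.9% and 19.8% of all genes were. In the next comparison, 19 of the 20 members called in BALB/c minus C57BL/6J were lower, where 7% of all genes were called lower and 7.89% higher. Among them were Tnnt1, Tnnc1, Tnnt2, Myh7, Casq2, Myl2 and Actc1 of the slow or cardiac group, Actn3, Atp2a1, Myh1 and Tnnt3 of the fast group, and Myh3 and Myh13. Of the 37 called in A/J minus BALB/c, 29 were higher, where 29.3% of all genes were called higher and 30.6% lower. Without both A/J 1 and A/J 2, the counts were 0, 5 and 0. The GC trend of A/J 3 differs in sign from that of A/J 1 and 2, whereas that of C57BL/6J 3 is close to that of C57BL/6J 2; its part in these counts was not tested.

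Other genes of striated muscle, outside the rule but in lists of Z-disc, calcium, energy, junction and regulatory genes, were mostly not called either. Of 21 Z-disc and thin filament genes tested, Nrap, a myofibril assembly protein, was lower in A/J (4.47 ± 0.528 RPKM) and BALB/c (3.72 ± 0.136) than in C57BL/6J (8.37 ± 1.46; log2 -0.73, adjusted p = 0.02, and -0.90, adjusted p = 0.0063). Ankrd2, a stretch-responsive Z-disc and nuclear protein, was higher in A/J (1.84 ± 0.375) than in C57BL/6J (0.83 ± 0.0755; log2 0.88, adjusted p = 0.029) or BALB/c (0.543 ± 0.169; log2 1.14, adjusted p = 0.0087). No other gene of that list passed. Among 20 genes of excitation-contraction coupling limma called none in any comparison (3, 2 and 3 at an unadjusted p under 0.05). Pvalb, the calcium buffer of fast fibres and of some retinal cells, was at 173.0 ± 42.9, 99.5 ± 31.1 and 116.0 ± 29.7 RPKM for A/J, BALB/c and C57BL/6J.

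Of 18 energy genes, Pgam2, the muscle phosphoglycerate mutase, was at 286.37, 268.42 and 291.19 RPKM for A/J, 292.66, 285.85 and 271.08 for BALB/c, and 130.47, 161.25 and 68.94 for C57BL/6J. It was called higher in both albino strains than in C57BL/6J (log2 1.42, adjusted p = 0.046, and 1.50, adjusted p = 0.034), whereas Ckm was not called and Mb was called lower in BALB/c than in C57BL/6J. Fabp3, a fatty acid carrier of heart and oxidative muscle, was higher in BALB/c (24.3 ± 2.26) than in C57BL/6J (12.2 ± 0.977; log2 1.14, adjusted p = 0.036). Limma called none of 15 genes of the neuromuscular junction and dystrophin complex (4, 3 and 4 at an unadjusted p under 0.05) and none of 12 myogenic regulators and satellite cell genes (1, 3 and 1).

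Markers of the tissues around the muscle stumps were read in the same libraries. The smooth muscle list of 15 genes, 2 of them members, summed to 374.8 to 437.2 RPKM for A/J, 397.8 to 435.4 for BALB/c and 458.6 to 575.3 for C57BL/6J, with only Pcp4l1 called, lower in A/J than in both other strains. The tendon and sclera list of 12 genes overlapped in its sum (266.8 to 374.0, 275.1 to 280.9 and 239.4 to 382.8 RPKM), but its member Comp, a matrix protein of tendon and cartilage, was at 3.37 ± 1.19 RPKM for A/J, 1.69 ± 0.05 for BALB/c and 14.2 ± 2.23 for C57BL/6J (log2 -1.85, adjusted p = 0.0023, and -2.58, adjusted p = 0.00031 against C57BL/6J). Orbital fat genes summed to 19.9 to 100.9, 42.6 to 104.6 and 12.4 to 40.2 RPKM, with Cidea called higher in BALB/c than in C57BL/6J. The median log2 change of the 9 fat genes tested was 0.45 in A/J minus C57BL/6J, 1.38 in BALB/c minus C57BL/6J and -0.84 in A/J minus BALB/c. At an unadjusted limma p under 0.05 there were 2, 6 and 3 of the 9 in that order. Within strains, the fat sum and the striated sum were both highest in A/J 2 and BALB/c 1, and the fat sum was lowest in A/J 3 and C57BL/6J 3. In C57BL/6J they parted: the fat sum was highest in C57BL/6J 2, where the striated sum was lowest (2599.3 RPKM). The striated sum there was highest in C57BL/6J 1 (2944.0). Myelin genes of the optic nerve reached 1397.9 RPKM in an A/J library, against at most 466.8 for BALB/c and 481.9 for C57BL/6J. No gene of these 4 lists was at 0 in any library. Of 7 pericyte genes, Anpep was lower in A/J than in C57BL/6J, and of 8 Harderian and lacrimal gland genes Krt7 was lower in both albino strains than in C57BL/6J. Of 12 genes each, cornea and conjunctiva had Krt4, Krt13 and Krt15 called lower in both albino strains than in C57BL/6J, and rods had Sag called higher in A/J than in C57BL/6J. The cornea and conjunctiva list as a whole had medians of -0.16 for A/J and -0.19 for BALB/c against C57BL/6J. Its Krt12 lay on the higher side without a call (log2 0.62, limma adjusted p = 0.19, and 0.57, adjusted p = 0.23). Limma called no gene of the lens (4, 7 and 4 of 12 at an unadjusted p under 0.05), the pigment epithelium (2, 0 and 3 of 9) or myelin (7, 0 and 2 of 11). The part of the surrounding tissue in the differences of the muscle genes was not tested.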

How the data were processed

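Per the labels' protocols, poly(A) RNA from pooled eyes of 5 mice was primed at random for each library. Per the submitters' processing notes, CASAVA 1.7, GenomeStudio and the mouse build mm9 were used; no source used here says how reads were counted. The authors deposited 1 table per library, whose values were taken as RPKM: value times transcript length summed to 108.5% to 111.7% of the total RPKM implies in 8 libraries and 126.6% in C57BL/6J 3. A search for whole reads found at most 28.1% of low values within 0.1 of whole numbers, so depth is unknown and no count test was run.

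Values were scaled by size factors (median of ratios, 0.931 to 1.16) and log2 was taken after adding 0.5. Genes reaching 1 RPKM in at least 3 libraries entered the test, limma 3.58.1 under R 4.3.3 (trended, robust, two-sided, strain as the only term, all 9 libraries), with Benjamini-Hochberg adjustment over 12920 genes. The fit was tested on simulated data. The members, their classes and the 15 other gene lists (199 of 231 genes found) were chosen with earlier results of these data known. The rule named the sarcomeric and smooth muscle heavy chains, the 3 members of highest mean in each other role and every called member; the remaining members were named after their values were seen.

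Shared sequence, GC content and gene order came from GENCODE and RefSeq annotation of GRCm38, another build than the tables', and promoters of 46 of the 54 genes from RefSeq. Replicate numbers were not taken to pair libraries, since not every same-numbered pair deviated together. Alternatives changed the scaling, pseudocount, filter, replicate block, GC correction and libraries used.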

Additional observations from a re-analysis of the deposited data

How the results depend on the processing

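No call of a member changed sign under any alternative tried. The median log2 change of the 38 striated genes changed sign in A/J minus C57BL/6J, from 0.05 to -0.05 with values as deposited, -0.07 without A/J 2 and -0.13 without C57BL/6J 3. It was -0.15 when A/J 1 and 2 were omitted together, and -0.09 when the third libraries of A/J and C57BL/6J were. It lay between -0.43 and -0.11 in BALB/c minus C57BL/6J and between 0.13 and 0.54 in A/J minus BALB/c. Omitting 1 library at a time moved the number of members called between 0 and 11 in A/J minus C57BL/6J, 2 and 10 in BALB/c minus C57BL/6J, 1 and 16 in A/J minus BALB/c and 2 and 15 in the F test. The genes called over all genes ranged from 159 to 3656, 166 to 640, 106 to 4478 and 283 to 4275 in the same order. Without A/J 3 the members called were 11, 8, 16 and 15, and without C57BL/6J 3 they were 2, 10, 10 and 14. With C57BL/6J 3 and A/J 3 both left out, members called were 23, 20, 37 and 42 and genes called 5128, 1924, 7744 and 7987. Without both A/J 1 and A/J 2, members called were 0, 5, 0 and 2 and genes called 127 in A/J minus C57BL/6J, 74 in A/J minus BALB/c and 322 in the F test. With only the 2 strains compared in the fit, 0 members in A/J minus C57BL/6J (141 genes in all) and 8 in A/J minus BALB/c were called. The cause was not tested. With values as deposited, the median of all genes was -0.113 in A/J minus C57BL/6J and -0.174 in BALB/c minus C57BL/6J, and 40.9% of the calls of the latter were higher, against 62.7% with size factors. Members called were then 2, 8, 5 and 10. With size factors, the split of A/J minus BALB/c was 23.1% higher, and 33.7% with values as deposited.

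Same-numbered libraries did not all deviate together. Correlations of their deviations were 0.337 to 0.537 for the 3 pairs numbered 1, -0.515 to 0.021 for those numbered 2 and 0.092 to 0.472 for those numbered 3, and A/J 2 was closer to BALB/c 1 (0.595) and C57BL/6J 1 (0.602) than to its own number. With the replicate number as a block, 2, 7, 6 and 8 members were called, and with the replicate block and GC correction together 3, 5, 6 and 9. With GC correction alone the counts were 3, 6, 6 and 8.

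Depth is unknown, so calls near 1 RPKM, such as Dysf, have no counting error beside them. Read sharing among heavy chains, and between Tpm3 and Tpm3-rs7, limits those levels.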

Other observations

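A few relatives of the family lie outside the symbol rule because the tables use older symbols or because they are regulators, and they were chosen here after their values were seen. Mylc2pl, listed elsewhere as Myl10, a regulatory light chain, was at 2.33, 2.78 and 3.59 RPKM for A/J, 3.14, 2.04 and 1.60 for BALB/c, and 10.14, 8.03 and 6.10 for C57BL/6J. C57BL/6J was above all other libraries, and limma called Mylc2pl lower in A/J (log2 -1.23 ± 0.27, adjusted p = 0.048) and in BALB/c (-1.49 ± 0.27, adjusted p = 0.017). Its side matches that of Myl4, another light chain that was highest in C57BL/6J.

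The slow myosin-binding protein C is listed as 8030451F13Rik. It was at 31.31, 34.29 and 21.38 RPKM for A/J, 19.13, 13.67 and 14.36 for BALB/c, and 30.64, 23.33 and 17.22 for C57BL/6J. BALB/c was below every A/J library but overlapped with C57BL/6J 3, and no comparison passed (adjusted p = 0.18 in A/J minus BALB/c). Mylk2, the kinase of skeletal light chains, was at 3.78 ± 0.393, 2.21 ± 0.368 and 4.04 ± 0.265 RPKM for A/J, BALB/c and C57BL/6J, with BALB/c lowest without overlap and no call (adjusted p = 0.086 and 0.088). Mylc2b, a non-muscle regulatory light chain, was highest in BALB/c at 153.0 ± 14.4 RPKM, above 92.4 ± 29.9 for C57BL/6J and 113.0 ± 23.8 for A/J, again without a call. Mybph was at 4.55 RPKM in C57BL/6J 3 and between 0.64 and 1.81 elsewhere, as Tnnt3, Tnnt2 and Atp2a3 also stood far above the other 8 libraries there.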
